A study of Mus musculus with 2 samples.

Results

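The genes described here are 8 chemokine ligands (*Ccl2*, *Ccl3*, *Ccl4*, *Ccl5*, *Ccl7*, *Ccl12*, *Cxcl16* and *Xcl1*) and the inflammatory cytokines *Il1b* and *Tnf*, in single cells of the mouse neurohypophysis (NH). They were taken by symbol, and all 10 were found among the 27998 genes of both count matrices and among the 15025 genes of the authors' table of cluster means. The NH is the posterior lobe of the pituitary, and the dissected tissue also held cells of the adjacent intermediate lobe (IL). It came from untreated male C57BL/6 mice of 3 months of age, in 2 independent pools of 5 mice each, and the cells were captured with 10x Chromium version 2 chemistry after digestion with Liberase TM and papain. The pools were replicates of 1 condition, so that cell types were compared and no treatment was. The unit is the UMI (unique molecular identifier), a tag that marks 1 captured mRNA molecule, and levels are CPM, UMIs of a gene per 1000000 UMIs of the summed cells. A UMI counts a molecule once whatever its length, so that CPM of different genes are on 1 scale, apart from differences in capture between transcripts.

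Chemokines are small secreted proteins that attract leukocytes through G protein-coupled receptors. The ligands of the CC family are made by many activated myeloid and lymphoid cells, and microglia and macrophages of the brain and its borders release *Ccl2*, *Ccl3* and *Ccl4* on activation. *Il1b* and *Tnf* encode interleukin-1 beta and tumour necrosis factor, early signals of inflammation that act on IL-1 and TNF receptors of many cell types, and activated microglia are a known source of both.

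The families are named for the spacing of their first cysteines, and the stretch of coding sequence around these codons is shown to let the members be told apart (GENCODE M21 transcripts, 5′ to 3′, cysteine codons of the motif in capitals). In the CC family the 2 codons are adjacent, in *Cxcl16* another codon lies between them, and in *Xcl1*, of the C family, the first cysteine codon stands alone.
Ccl2: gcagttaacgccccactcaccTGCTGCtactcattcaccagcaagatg
Ccl7: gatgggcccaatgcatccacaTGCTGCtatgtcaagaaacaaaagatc
Ccl12: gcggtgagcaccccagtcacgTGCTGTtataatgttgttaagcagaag
Ccl3: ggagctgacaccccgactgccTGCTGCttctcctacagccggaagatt
Ccl4: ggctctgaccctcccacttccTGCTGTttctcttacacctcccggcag
Ccl5: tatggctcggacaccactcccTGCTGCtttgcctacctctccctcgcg
Cxcl16: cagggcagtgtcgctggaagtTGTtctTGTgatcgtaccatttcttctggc
Xcl1: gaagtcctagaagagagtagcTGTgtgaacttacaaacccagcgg

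The members of the CC family lie in 2 groups on chromosome 11 (GRCm38). *Ccl2* (chr11:82035571-82037453), *Ccl7* (chr11:82045712-82047525) and *Ccl12* (chr11:82101845-82103400) are on the plus strand within 67.8 kb. *Ccl5* (chr11:83525778-83530518, minus strand), *Ccl3* (chr11:83647844-83649355, minus strand) and *Ccl4* (chr11:83662584-83664683, plus strand) lie within 138.9 kb, with 13.23 kb between *Ccl3* and *Ccl4*. *Cxcl16* is on the minus strand of the same chromosome (chr11:70453983-70459984). *Xcl1* (chr1:164931644-164935527), *Il1b* (chr2:129364570-129371139) and *Tnf* (chr17:35199381-35202007) are on the minus strand of other chromosomes. The coding sequences of *Ccl3* and *Ccl4* were 68.4% identical in a global alignment and those of *Ccl7* and *Ccl12* 63.5%. None of the 10 transcripts shared any window of 58 bases, the length of the cDNA read, with a transcript of another gene, so that exact reads within these transcripts named 1 gene.

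For 5 of the members RefSeq gave an upstream sequence, described here because *Ccl12*, *Il1b* and *Ccl3* were high in the same cell type and *Xcl1* was not. Only the sequences with the letters TATAAA are printed, and those of *Ccl3* and *Xcl1* are not. The letters TATAAA, searched on both strands in the 250 bases before the start, were found in the sequences of *Ccl12*, *Il1b* and *Tnf* and not in those of *Ccl3* and *Xcl1*, beside 12.4% of 32851 promoters of that length. Forms that differ from these exact letters were not counted, so the search does not show that *Ccl3* and *Xcl1* lack a similar stretch. A form of the NF-kB motif, GGG and TTTCC with any 2 bases between, searched in the same way, was in 0 of the 5 sequences and in 1.41% of all promoters. A count of 0 among 5 lies near that share. Other forms of this motif and bases outside the 250 were not searched. The search thus does not show that these genes lack an NF-kB site. The 60 bases before the start are given from RefSeq (GRCm38.p6) with TATAAA in capitals, for *Il1b* at chr2:129371140-129371199 (minus strand), *Tnf* at chr17:35202008-35202067 (minus strand) and *Ccl12* at chr11:82101785-82101844 (plus strand).
Il1b: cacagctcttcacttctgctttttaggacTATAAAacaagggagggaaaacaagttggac
Tnf: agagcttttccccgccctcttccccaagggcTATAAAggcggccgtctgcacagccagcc
Ccl12: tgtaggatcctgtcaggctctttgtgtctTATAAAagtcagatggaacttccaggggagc

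The limits of the study left 273 cells in pool 1 and 255 in pool 2, with 699676 and 726706 UMIs and medians of 2050.0 and 2330.0 UMIs per cell, and no barcode was kept in both pools. The authors' types held 196 pituicytes (the glia of the NH), 148 IL cells, 95 macrophage/microglia cells, 42 T-cell like cells, 23 epithelial-like cells, 13 cells of vascular endothelia and 11 vascular and leptomeningeal cells (VLMC). Macrophage/microglia held 41 and 54 cells in the 2 pools, and T-cell like cells 26 and 16. Both labels were borne out by their markers. A list of 10 macrophage and microglia markers summed to 29120 and 26680 CPM in macrophage/microglia and to 637.2 and 618.8 CPM in T-cell like cells. The 9 T-cell markers in the matrix summed to 4515 and 4538 CPM in T-cell like cells and to 45.1 and 9.27 CPM in macrophage/microglia. The NK markers summed to 218.5 and 446.9 CPM in T-cell like cells, in 10 cells, and the neutrophil markers to 22.6 and 64.9 CPM in macrophage/microglia. All 10 members are among the 900 genes of highest variance from which such clusters are built. The types are thus not independent of the members. The counts of members called in the 2 immune types are therefore set beside a clustering made without chemokine and cytokine genes.

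Most UMIs of each of the 10 genes were in the immune types, and the genes were divided between these. In macrophage/microglia, 9 of the 10 were called higher than in the mean of the other 6 types (all but *Xcl1*), against 16.5% of the 4510 genes tested. In T-cell like cells 5 were called higher (*Ccl3*, *Ccl4*, *Ccl5*, *Xcl1* and *Tnf*), against 9.47% of all genes. A gene was tested if it passed a filter on low counts, which it could do through 1 type alone. Of the *Il1b* UMIs 219 of 229 were in macrophage/microglia, and of the *Xcl1* UMIs 36 of 37 in T-cell like cells. These and later counts of calls are thus not independent of the filter. The mean of the other types was taken over their ln levels, so that types with few or 0 UMIs pull it down. A type can thus be called higher although another lies far above it. Mean CPM in T-cell like cells and macrophage/microglia was 79.9 and 1906 for *Ccl3*, 534 and 5192 for *Ccl4*, and 12310 and 367 for *Ccl5*. The median difference of the 10 members on the natural log scale was 3.95 in macrophage/microglia, beside 0.29 over all genes, and 1.21 in T-cell like cells, beside -0.12. A call required an adjusted p of at most 0.05 in edgeR's quasi-likelihood test and a difference of at least 1 on the natural log (ln) scale, and each p rests on the spread between sums of 2 pools. With the clustering that left the cytokine genes out, 8 members were called in macrophage/microglia and 4 in T-cell like cells. That fit tested 5743 genes, and its share of calls over all genes is not given here. The shares above belong to the main fit, so these 2 counts have no background beside them. In that clustering all 42 T-cell like cells and 93 of the 95 macrophage/microglia cells kept their type. It put most epithelial-like, endothelial and VLMC cells in 1 unnamed group, so that fewer groups made up the mean of the others. The other immune type weighed more in that mean.

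**Figure D1:**
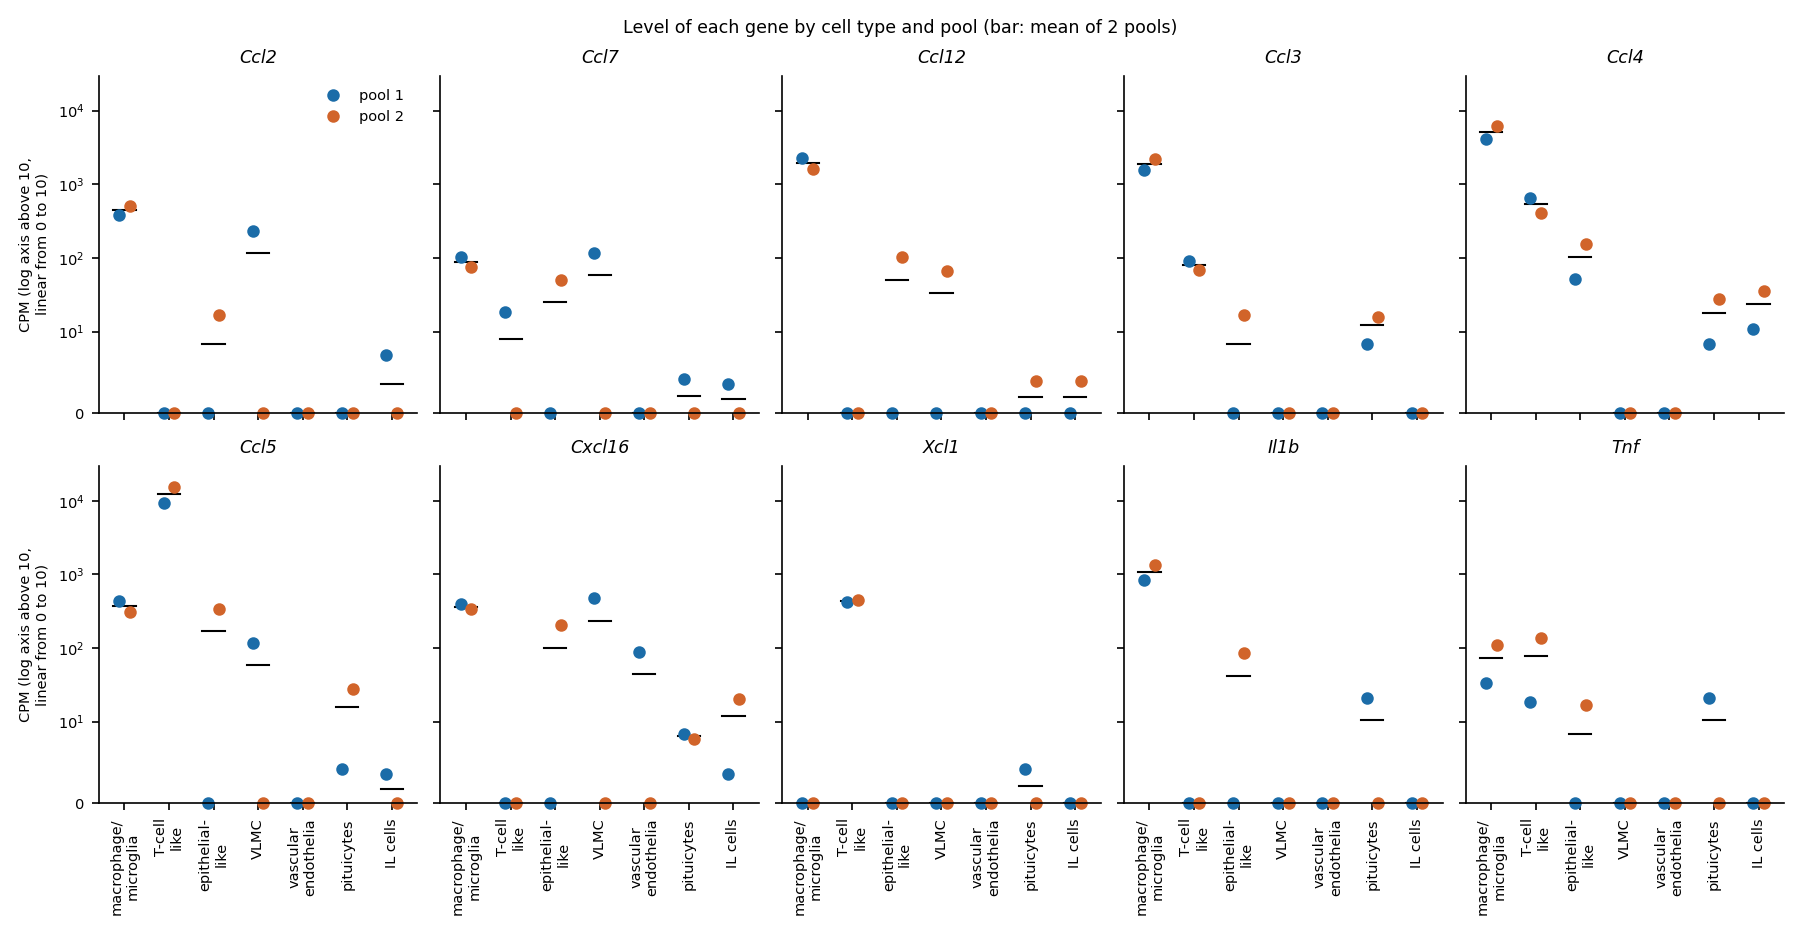
CPM of the 10 genes (vertical axis, logarithmic above 10 and linear from 0 to 10) in the 7 cell types (horizontal axis); each point is 1 pool and each bar the mean of 2 pools. *Ccl4*, *Ccl3*, *Ccl12* and *Il1b* stood highest in macrophage/microglia in both pools, *Ccl5* and *Xcl1* in T-cell like cells, and most points outside these types were at or near 0 or in 1 pool alone.

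*Ccl4* (MIP-1 beta), an attractant of lymphocytes and monocytes, had the highest level of the 10 genes in macrophage/microglia. It was at 4139 CPM in pool 1 and 6246 CPM in pool 2 (5192 ± 1490, SD, n = 2), from 1041 UMIs in 60 of 95 cells. T-cell like cells had 655 and 412.5 CPM, so that both pools of macrophage/microglia lay above both pools of T-cell like cells. The difference from the mean of the other types was 5.78 ± 0.23 (SE) on the ln scale in macrophage/microglia (adjusted p = 2.04e-134, edgeR) and 2.96 ± 0.40 in T-cell like cells (adjusted p = 1.14e-11). The SE of edgeR values, here and below, is approximate. It was derived from the difference and the F statistic of the test, which gives no SE itself.

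*Ccl3* (MIP-1 alpha), a ligand of Ccr1, followed the same order at lower levels. It was at 1579 and 2233 CPM in macrophage/microglia (1906 ± 463, n = 2), with UMIs in 50 of 95 cells. T-cell like cells held 7 *Ccl3* UMIs in 5 cells, or 91.0 and 68.8 CPM. The difference was 6.02 ± 0.27 on the ln scale in macrophage/microglia (adjusted p = 1.47e-105, edgeR). In T-cell like cells it was 2.18 ± 0.69 (adjusted p = 0.0132), a call that was not made with the clustering without cytokine genes, where the difference was 0.85. The mean of the other types also differed there, and the cause of the change was not tested.

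The monocyte attractants *Ccl2* (MCP-1), *Ccl7* (MCP-3) and *Ccl12* (MCP-5), ligands of Ccr2, were macrophage/microglia genes at 3 different levels. *Ccl12* was at 2278 and 1631 CPM there (1955 ± 458, n = 2; 378 UMIs in 42 of 95 cells). *Ccl2* was at 384 and 509.7 CPM (447 ± 89.3; 89 UMIs in 30 cells). *Ccl7* was at 101.5 and 74.1 CPM (87.8 ± 19.4; 17 UMIs in 8 cells).

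All 3 were called higher in macrophage/microglia. The difference on the ln scale was 6.02 ± 0.27 for *Ccl12* (adjusted p = 3.25e-109, edgeR), 4.81 ± 0.36 for *Ccl2* (adjusted p = 5.74e-38) and 2.64 ± 0.57 for *Ccl7* (adjusted p = 3.77e-05). T-cell like cells had 0 UMIs of *Ccl2* and of *Ccl12* in 42 cells, which allows a share of up to 7.143% of cells with a UMI (3 counts) and sets no limit on cells that express them at this depth, and 1 of *Ccl7*. *Ccl7* is the member with the second fewest macrophage/microglia UMIs after *Tnf* among the 9, and 6 of its 17 UMIs were in 1 cell. In VLMC 1 *Ccl7* UMI of pool 1 stood for 117.8 CPM, since that sum held 8491 UMIs.

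*Ccl5* (RANTES), a product of activated and memory T cells and of NK cells, was the most abundant of the 10 genes in any type. T-cell like cells had 9176 CPM in pool 1 and 15440 CPM in pool 2 (12310 ± 4427, n = 2), from 953 UMIs in 38 of 42 cells. Of all *Ccl5* UMIs in kept cells, 90.42% were in T-cell like cells. The difference from the other types was 6.23 ± 0.21 on the ln scale (adjusted p = 1.11e-184, edgeR).

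Macrophage/microglia held *Ccl5* in 16 of 95 cells, at 429 and 306 CPM, and 26 of its 71 UMIs were in 1 cell. The difference was 2.35 ± 0.34 (adjusted p = 1.48e-10). With the clustering without cytokine genes, where the mean of the other types also differed, it was 0.92 and not called. With the 5 macrophage/microglia cells left out that had no UMI of a C1q gene, of which 1 held those 26 UMIs, *Ccl5* was still called.

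*Xcl1* (lymphotactin) is known from cytotoxic T cells and NK cells, and here it was in T-cell like cells at nearly the same level in both pools. It was at 419 and 447 CPM (433 ± 19.9, n = 2), from 36 UMIs in 13 of 42 cells. Macrophage/microglia had 0 UMIs in 95 cells, which allows up to 3.158% of cells with a UMI, and of the other 391 cells 1 had a UMI. The difference on the ln scale was 5.66 ± 0.55 in T-cell like cells (adjusted p = 1e-22, edgeR). DESeq2 gave 4.66 ± 2.89 and no call (adjusted p = 0.3).

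*Cxcl16*, made as a membrane-bound chemokine and the ligand of Cxcr6, was found at low counts in many cells. Macrophage/microglia had 395 and 334 CPM (364 ± 43.2, n = 2), with UMIs in 37 of 95 cells and at most 6 in any cell. T-cell like cells had 0 UMIs in 42 cells. VLMC held 4 UMIs in 4 of 11 cells, all in pool 1, where 471.1 CPM stood above macrophage/microglia and rested on those 4 UMIs, and pool 2 had 0. The difference in macrophage/microglia was 3.10 ± 0.31 on the ln scale (adjusted p = 2.62e-21, edgeR).

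*Il1b* was at 835 and 1344 CPM in macrophage/microglia (1089 ± 360, n = 2), from 219 UMIs in 48 of 95 cells. T-cell like cells, VLMC, vascular endothelia and IL cells had 0 *Il1b* UMIs. The difference from the other types was 5.94 ± 0.31 on the ln scale (adjusted p = 3.76e-77, edgeR). DESeq2, run as an alternative, gave 4.92 ± 2.88 and no call (adjusted p = 0.307).

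*Tnf* was low in both immune types, with pool 2 above pool 1 in each. Macrophage/microglia had 33.8 and 111 CPM (3 and 12 UMIs, in 11 of 95 cells). T-cell like cells had 18.2 and 137.5 CPM (1 and 4 UMIs, the 4 in a single cell), so that the ranges of the 2 types overlapped. The difference from the other types was 2.88 ± 0.66 on the ln scale in macrophage/microglia (adjusted p = 0.000106, edgeR) and 2.44 ± 0.87 in T-cell like cells (adjusted p = 0.0382). The call in T-cell like cells was lost with pool as a block (2.50, adjusted p = 0.0506), with library size alone (2.42) and without the filter on low counts (2.34).

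The contrast of macrophage/microglia with T-cell like cells asks which immune type holds each gene, without the 5 other types. Of the 10 members, 6 were called higher in macrophage/microglia, against 8.45% of the genes tested, and 2 in T-cell like cells, against 2.46%. The median difference of the members was 2.85 on the ln scale, beside 0.23 over all genes. From the summed UMIs of both pools, *Ccl3* was 23.3-fold higher in macrophage/microglia (17.4-fold in pool 1 and 32.5-fold in pool 2). *Ccl4* was 9.27-fold higher, with 6.32-fold in pool 1 and 15.1-fold in pool 2. For genes without a UMI in T-cell like cells a floor of 3 UMIs over the group gives lower bounds. *Ccl12* was at least 53.9-fold, *Il1b* at least 31.2-fold, *Ccl2* at least 12.7-fold and *Cxcl16* at least 10.1-fold higher in macrophage/microglia.

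The order was opposite for *Ccl5*, 31.4-fold higher in T-cell like cells (21.4-fold in pool 1 and 50.5-fold in pool 2), and for *Xcl1*, at least 28.1-fold higher there. The ln difference of *Ccl5* was -3.32 ± 0.29 (adjusted p = 1.62e-27, edgeR), and that of *Xcl1* -5.83 ± 0.87 (adjusted p = 9.25e-10). With DESeq2 the calls of *Xcl1* (-5.35), *Il1b* (5.56) and *Ccl2* (4.67) in this contrast were not made. *Ccl7* and *Tnf* were not called. The ln difference of *Ccl7* was 2.07 (adjusted p = 0.137, edgeR), with an approximate 95% interval of 0.29 to 3.85 from the derived SE. That of *Tnf* was 0.38, with an interval of -0.87 to 1.63, which leaves room for a difference either way.

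**Figure D2:**
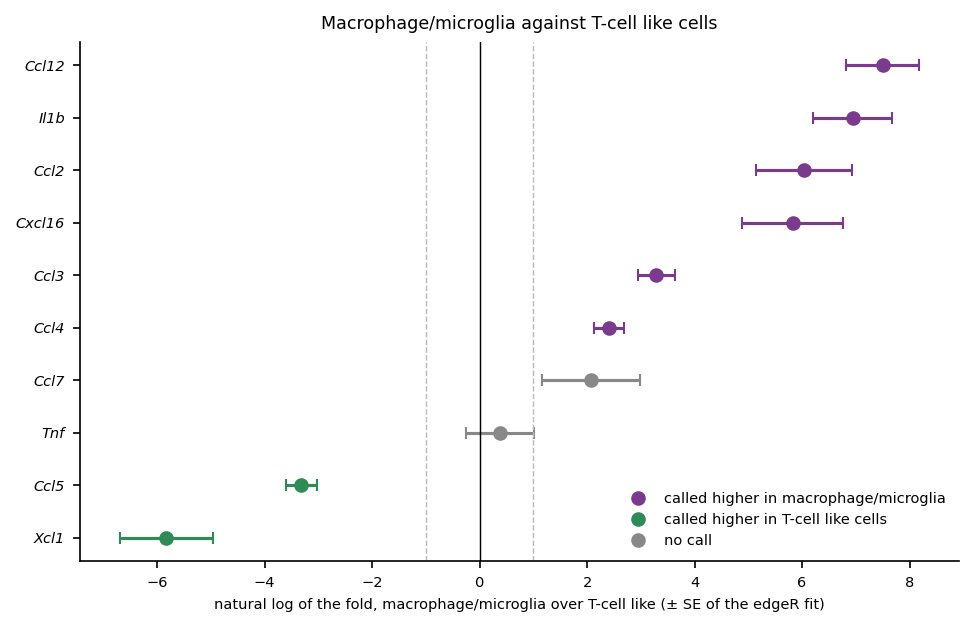
Difference between macrophage/microglia and T-cell like cells on the natural log scale (horizontal axis) for the 10 genes (vertical axis). Points have ± the approximate SE derived from the edgeR test, and dashed lines mark the required size of 1. The 6 genes called higher in macrophage/microglia lie between 2.41 and 7.50 and the 2 called higher in T-cell like cells at -3.32 and -5.83; fitted values of genes with 0 UMIs in 1 type depend on the prior count and are no measured ratio.

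The macrophage/microglia type joins 2 of the authors' clusters, a with 69 cells and b with 26, and the members differed in level between them. The clusters were built on these genes and cells, so the levels are a description. *Ccl4* was at 5210 and 7299 CPM in cluster a and at 2820 and 2549 CPM in cluster b. *Ccl3* was at 1818 and 2501 CPM in a and at 1284 and 1296 CPM in b. For both genes the pools of the clusters did not overlap.

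*Ccl12* and *Cxcl16* had the opposite order. *Ccl12* was at 1839 and 1095 CPM in cluster a and at 2820 and 3511 CPM in b, although a UMI was found in like shares of cells, 31 of 69 and 11 of 26. *Cxcl16* was at 184 and 286 CPM in a and at 654.5 and 501.5 CPM in b. *Ccl5* was at 20.4 and 286 CPM in a and at 931.5 and 376 CPM in b, where 26 of its UMIs were in 1 cell. *Il1b*, *Ccl2*, *Ccl7* and *Tnf* overlapped between the clusters.

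Cluster a had the higher levels of microglia markers (6558 and 5227 CPM over the 8 listed genes, against 2517 and 2131 CPM in b). Cluster b had more of the 8 border macrophage markers (1359 and 1087 CPM, against 694.7 and 357.2) and of the 10 monocyte and dendritic cell markers (2543 and 1212 CPM in 6 of 26 cells, against 40.9 and 59.5). The summed early response genes were at 11400 and 16380 CPM in a and at 6419 and 8693 CPM in b. Their part in the members' differences between clusters was not tested.

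**Figure D3:**
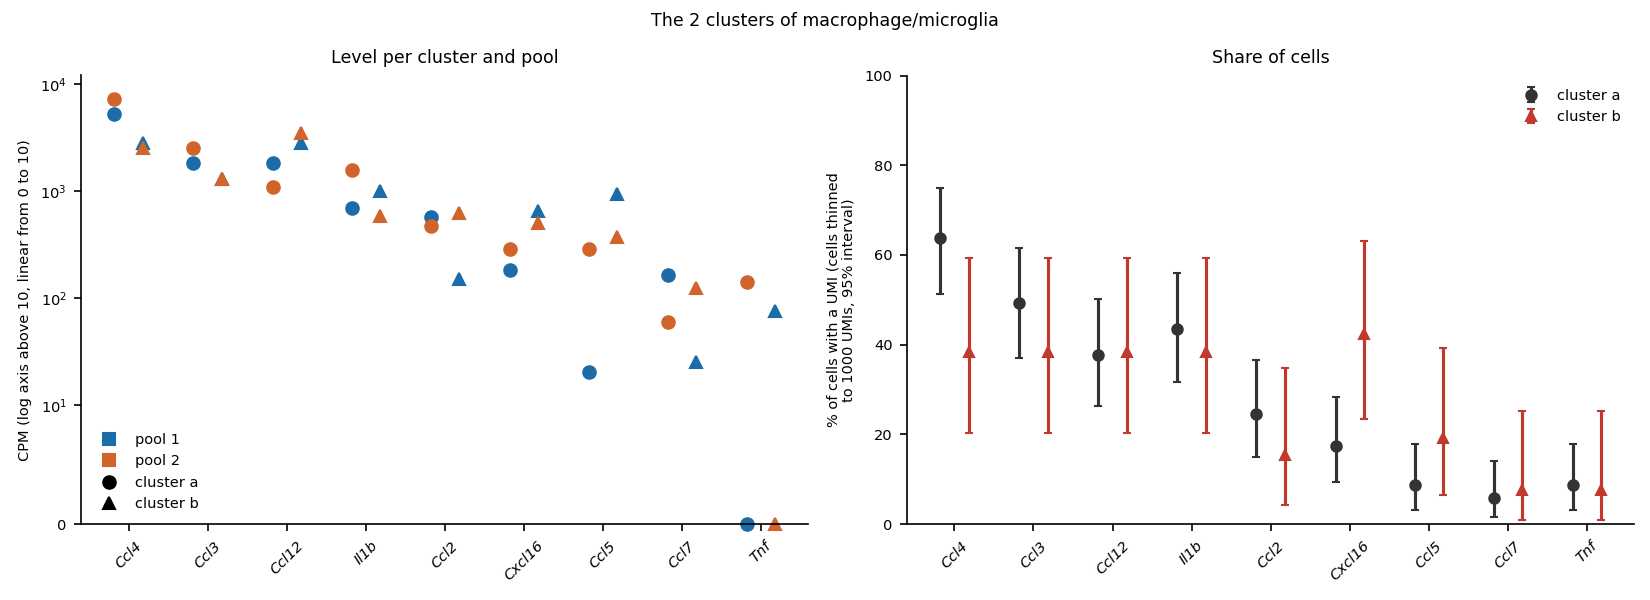
Left, CPM of 9 genes (vertical axis, logarithmic above 10) in clusters a (circles) and b (triangles) of macrophage/microglia, 1 point per pool; right, percent of cells with a UMI after each cell was thinned to 1000 UMIs, with exact 95% intervals. *Ccl4* lies higher in cluster a in both pools and *Cxcl16* and *Ccl12* higher in cluster b.

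Within macrophage/microglia most cells held several of the genes. Of 95 cells, 88 had a UMI of at least 1 member and 77 of at least 2, and the median cell had 3. After each cell was thinned to 1000 UMIs, 62 cells had at least 2. The cells with most UMIs held at least 50% of the UMIs of *Ccl4* when 11 cells were counted and of *Il1b* when 10 were, whereas for *Ccl12* and *Ccl2* 6 cells held that share.

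Some members were found in the same cells and others were not. *Ccl4* and *Ccl3* were detected together in 44 cells, *Ccl4* alone in 16 and *Ccl3* alone in 6. In thinned cells their Spearman correlation across the 95 cells was 0.71 (0.60 in pool 1 and 0.79 in pool 2). *Ccl2* was found in 28 of the 60 cells with *Ccl4* and in 2 of the 35 without.

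*Ccl12* did not follow *Ccl4* or *Ccl3*. Its correlation was 0.13 with *Ccl4* and 0.00 with *Ccl3*, and *Ccl12* was found in 20 of 50 cells with *Ccl3* and in 22 of 45 without. *Cxcl16* was found in 38.3% of the cells with *Ccl4* and in 40.0% of those without. These values are across cells of 2 libraries, which share depth and preparation, and carry no test.

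The summed members correlated across cells with the early response genes, such as *Fos*, *Junb* and *Egr1*, which are induced within minutes of a stimulus and can be induced by tissue dissociation. The Spearman correlation in thinned cells was 0.62 (0.41 in pool 1 and 0.74 in pool 2), and with the NF-kB response list 0.56 (0.40 and 0.65). It was 0.14 with the microglia markers and -0.22 with the mitochondrial share of a cell. The part of the early response in the members' levels was not tested.

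**Figure D4:**
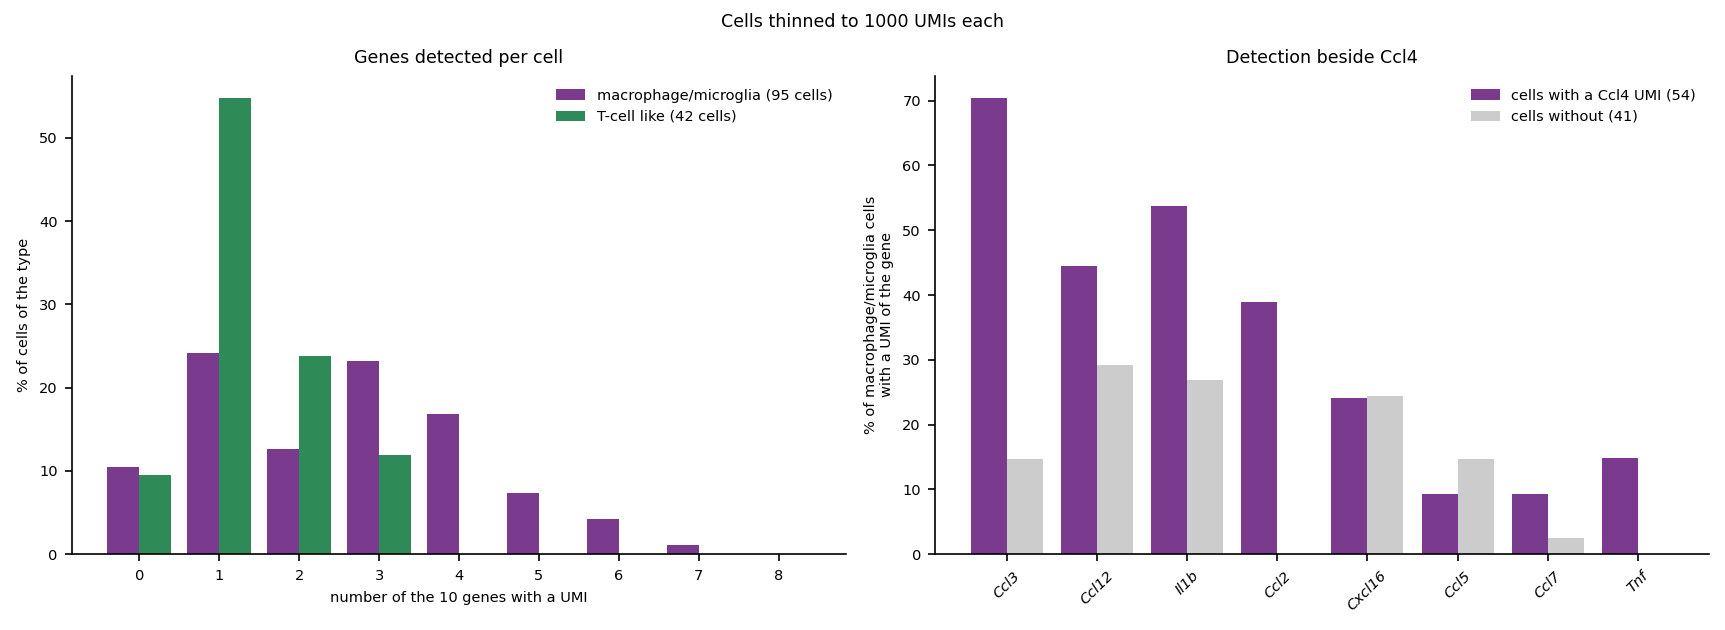
Left, percent of cells of macrophage/microglia (95) and T-cell like cells (42) with a given number of the 10 genes detected; right, percent of macrophage/microglia cells with a UMI of each gene among the 54 cells with a *Ccl4* UMI and the 41 without, all after thinning to 1000 UMIs. *Ccl3* and *Ccl2* were found mostly in cells with *Ccl4*, and *Cxcl16* in like shares of both groups.

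Among the 42 T-cell like cells, *Ccl5* was general and the other members were held by few cells. All 20 cells with a *Cd8a* or *Cd8b1* UMI, genes of the CD8 co-receptor, had *Ccl5*, with 656 of the 953 UMIs, and a *Cd4* UMI was found in 1 cell. *Ccl4* was in 10 cells, and 22 of its 48 UMIs were in 1 cell. All 13 cells with *Xcl1* also had *Ccl5*.

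The type also held cells with NK markers. A UMI of *Klrb1c* or *Ncr1*, receptors of NK cells, was found in 5 cells, of which 4 had no UMI of *Cd3d*, *Cd3e* or *Cd3g*, the signalling chains of the T-cell receptor. The 5 cells held 29 of the 48 *Ccl4* UMIs, in 2 cells, and 21 of the 36 *Xcl1* UMIs, in 3 cells, but 144 of the 953 of *Ccl5*. The 1 cell with 22 *Ccl4* UMIs was among them and had no *Cd3* UMI.

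In all, 9 of the 42 cells had no *Cd3* UMI, and they held 25 of the 36 *Xcl1* and 23 of the 48 *Ccl4* UMIs. Of these 23 *Ccl4* UMIs, 22 were in the 1 cell named above. Without these 9 cells, an alternative chosen after the data were seen, 3 members were called in T-cell like cells (*Ccl5*, *Ccl4* and *Tnf*). *Ccl3* was not called (ln difference 1.12), and *Xcl1*, with 11 UMIs left in the type, fell under the filter on low counts. In the contrast with macrophage/microglia *Ccl7* was then called as well (ln difference 4.39).

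Outside the immune types the members were sparse, and 0 members were called higher in pituicytes, IL cells, VLMC or vascular endothelia by edgeR, where at an unadjusted p under 0.05 *Ccl2* in VLMC was the 1 higher member (2 UMIs in pool 1), or by DESeq2. The share of higher calls over all genes was 16.8% for pituicytes, 16.9% for IL cells, 2.88% for VLMC and 3.41% for vascular endothelia. In the last 2 types a count of 0 among 10 lies near the background. With only 10 genes, it is not clearly below the background in pituicytes and IL cells either. In epithelial-like cells *Cxcl16* and *Ccl5* were called higher, against 8% of the genes tested. *Cxcl16* had 12 UMIs in 9 of 23 cells and *Ccl5* 20 UMIs in 2 cells, all in pool 2, where 16 of the 23 cells were. Pool 1 had 0 UMIs of either. The ln difference was 1.66 ± 0.52 for *Cxcl16* (adjusted p = 0.0218, edgeR) and 1.43 ± 0.46 for *Ccl5* (adjusted p = 0.0250). Fitted to pool 1 alone, without a test, the differences were -3.01 and -3.58, and to pool 2 alone 3.20 and 2.46, so that the direction of both rested on pool 2.

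Markers of the immune types were also found in some of these cells. Of the 391 cells of the 5 types, 9 held at least 5 UMIs of the macrophage/microglia markers or at least 2 of the T-cell markers, and these 9 held 12 of the 30 *Ccl5* UMIs, 10 of the 31 of *Ccl4*, 7 of the 9 of *Ccl12*, 8 of the 10 of *Il1b* and 6 of the 6 of *Tnf* outside the immune types. Without them, *Cxcl16* was still called in epithelial-like cells and *Ccl5* was not. Of the 27 *Cxcl16* UMIs outside the immune types, 6 were in these 9 cells.

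All 10 UMIs of *Il1b* and *Tnf* in pituicytes, 5 of each, were in 1 cell of pool 1 with 9070 UMIs. That cell had 165 UMIs of the MHC class II genes *H2-Aa*, *H2-Ab1* and *Cd74*, 8 of *Xcr1* and 3 of *Flt3*, markers of dendritic cells, and 0 of the pituicyte markers *Scn7a* and *Col25a1*. The clustering without cytokine genes placed it with macrophage/microglia. It is described here by its genes and the authors' label was kept in all counts.

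Known receptors of the members were counted in the same cells (those under the naming rule's limit were added after their values were seen). *Cxcr6*, the receptor of *Cxcl16*, was in T-cell like cells, at 437 and 516 CPM (39 of its 41 UMIs, in 23 of 42 cells), and macrophage/microglia, which held *Cxcl16*, had 0 UMIs. Its ln difference in T-cell like cells was 5.03 ± 0.47 (adjusted p = 4.73e-24, edgeR).

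*Ccr2*, the receptor of *Ccl2*, *Ccl7* and *Ccl12*, was too low to be tested. It had 13 UMIs in 3 macrophage/microglia cells and 11 UMIs in 9 T-cell like cells, and 0 in the other types. *Ccr1* had 1 UMI in all.

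*Xcr1*, the receptor of *Xcl1*, had 12 UMIs in 4 cells. The cell with *Il1b* and *Tnf* labelled as a pituicyte held 8 of them, 2 macrophage/microglia cells without a C1q UMI held 3, and 1 IL cell held 1. Each of the 4 cells had MHC class II UMIs, between 8 and 172.

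Of the IL-1 and TNF system, *Il1a* (36 UMIs) and the IL-1 receptor antagonist *Il1rn* (18 UMIs) were found in macrophage/microglia and in no other type. *Il1r1*, the signalling IL-1 receptor, had 1 UMI in all kept cells. *Tnfrsf1a* was spread over the types, with 54 of 105 UMIs in pituicytes and 13 in macrophage/microglia, and was called lower in T-cell like cells, which had 0 UMIs (adjusted p = 0.0497). *Tnfrsf1b* had 16 of its 17 UMIs in macrophage/microglia.

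**Figure D5:**
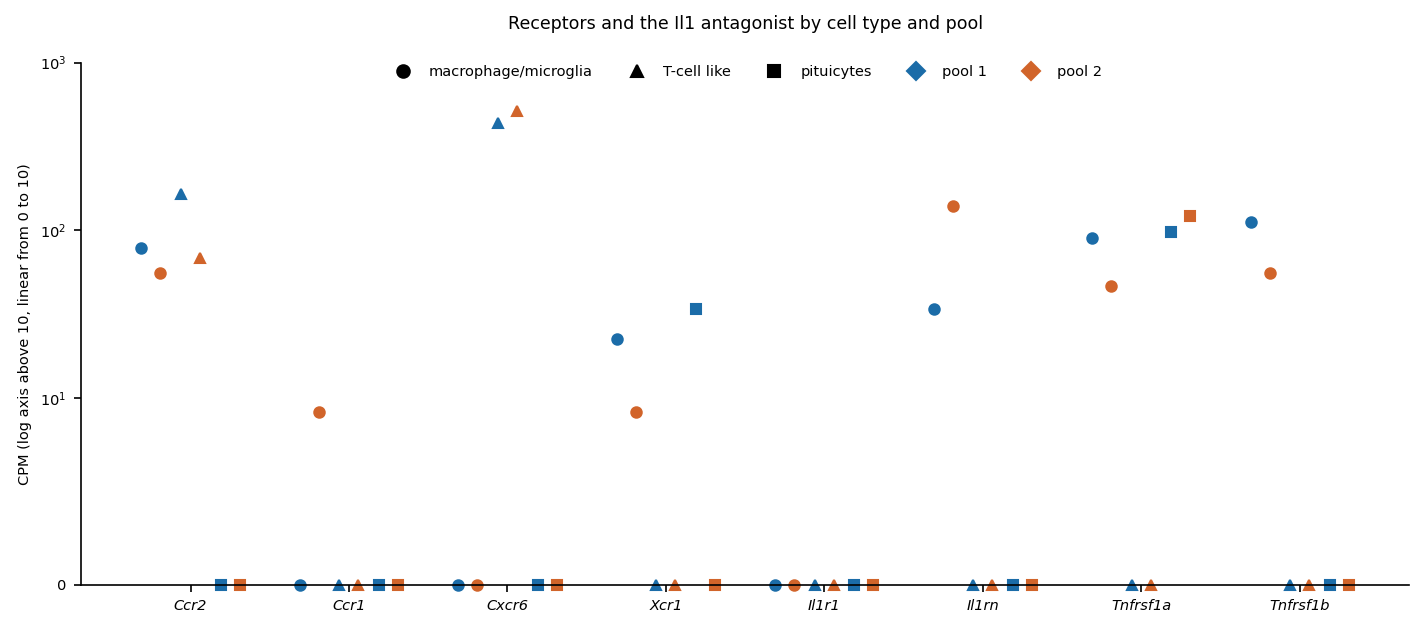
CPM (vertical axis, logarithmic above 10 and linear from 0 to 10) of 8 genes, receptors of the members and *Il1rn* (horizontal axis) in macrophage/microglia (circles), T-cell like cells (triangles) and pituicytes (squares), 1 point per pool. *Cxcr6* lies at 437 and 516 CPM in T-cell like cells and at 0 in macrophage/microglia; the *Xcr1* point of pituicytes in pool 1 is 8 UMIs of 1 cell.

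Other chemokine ligands were fewer. Of the 28 found in the matrix, 19 had a UMI and 4 could be tested, of which 3 were called higher in macrophage/microglia. That type held 21 of the 22 *Ccl6* UMIs and 37 of the 38 *Cxcl9* UMIs. These 2 genes thus passed the filter through the type in which they were called, and the count of 3 is a description. The 3 called were *Cxcl10*, a target of interferon (553 and 704 CPM, ln difference 4.84 ± 0.36, adjusted p = 8.67e-40, edgeR), *Cxcl9* (259 and 129.7 CPM, 5.02 ± 0.58) and *Ccl6* (90.2 and 120.5 CPM, 4.45 ± 0.69). *Cxcl10* was also called in T-cell like cells (2.79 ± 0.67), where its 11 UMIs were all in pool 1. *Cxcl10* was not confined to immune cells, as pituicytes held 63 of its 199 UMIs in 10 cells, at 123 and 134 CPM. *Cx3cl1*, the ligand of Cx3cr1, had 0 UMIs in both immune types, and mean levels of 171 CPM in epithelial-like cells, 168 CPM in vascular endothelia and 82.5 CPM in IL cells. Its receptor *Cx3cr1* had 401 of 417 UMIs in macrophage/microglia.

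Among the other chemokine receptors, *Cx3cr1* (ln difference 6.24) and *Ccrl2* (3.48) were called in macrophage/microglia and *Cxcr4* (2.92) in T-cell like cells. Of the 12 genes of the IL-1 and TNF list 3 were tested, and *Pycard*, an inflammasome adaptor, was called in both types.

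Genes of the NF-kB response, the pathway that drives many chemokine genes and is held in check by its own targets *Nfkbia* and *Tnfaip3*, were mostly high in the same type. Of 14 tested, 13 were called higher in macrophage/microglia, against 16.5% of all genes tested. In T-cell like cells 2 of these, *Tnfaip3* and *Bcl2a1b*, were called higher as well, against 9.47%. A count of 2 among 14 lies near that background. *Cd83* was at 384 and 667 CPM in macrophage/microglia (5.02 ± 0.37) with 0 UMIs in T-cell like cells, and *Nfkbia* at 598 and 973 CPM (2.94 ± 0.25). The median ln difference of the list was 2.44 in macrophage/microglia, beside 0.29 over all genes.

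Of 16 early response genes tested, 11 were called higher in macrophage/microglia and 0 in T-cell like cells, where 4 were called lower. Over all genes tested, 16.5% were called higher in macrophage/microglia, 9.47% higher in T-cell like cells and 2.75% lower in T-cell like cells. These genes were also found elsewhere, as *Fos* had 1794 of 3024 UMIs in IL cells. Summed over the list, they were at 9169 and 14680 CPM in macrophage/microglia and at 11370 and 23380 CPM in vascular endothelia. IL cells had 11510 and 11030 CPM and epithelial-like cells 8490 and 14580 CPM, with lower sums in T-cell like cells, pituicytes and VLMC. The list was thus not highest in macrophage/microglia. In macrophage/microglia *Fos* was at 1974 and 3484 CPM (1.14 ± 0.18) and *Junb* at 1635 and 2826 CPM (2.04 ± 0.25), with pool 2 above pool 1 for both. Among the members there, *Ccl2*, *Ccl3*, *Ccl4*, *Il1b* and *Tnf* had the same order, and *Ccl5*, *Ccl7*, *Ccl12* and *Cxcl16* had the opposite. An order of 2 pools carries no test.

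The genes whose levels were most like those of *Il1b* over the 22 sums per cluster and pool, by Pearson correlation of log2(CPM + 100), were *Hpgd* (0.989), *Ppfia4* (0.981) and *Cd83* (0.981). Those most like *Ccl3* were *Gpr34* (0.984), *Adap2* (0.983) and *Slc15a3* (0.978). For *Ccl5* the values were lower, with *Lpxn* at 0.945, *Rgs1* at 0.944 and *Runx3* at 0.920. The sums share libraries and cell types, and the correlations are a description.

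The free RNA in the droplets was estimated for each member. Its gene levels were taken from barcodes of 1 to 50 UMIs in pool 1 for both pools. The matrix of pool 2 holds 0 such barcodes. Scaled by *Pomc*, the hormone precursor of IL cells, in immune cells, the free RNA made up 6.10% of UMIs in pool 1 and 5.19% in pool 2. It would give 1.58 *Ccl4* UMIs in macrophage/microglia, where 1041 were counted, and 0.70 in T-cell like cells, where 48 were counted. For *Ccl5* it would give 1.92 of the 71 UMIs in macrophage/microglia and 0.74 of the 20 in epithelial-like cells. Its part was larger in pituicytes and IL cells. In pituicytes it would give 3.94 of the 9 *Ccl4* UMIs and 4.80 of the 8 of *Ccl5*, but 0.03 of the 5 of *Tnf*. In IL cells it would give 4.31 of the 12 *Ccl4* UMIs, and 5.25 *Ccl5* UMIs where 1 was counted.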

How the data were processed

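Single-cell RNA-Seq of mouse neurohypophysis was analysed from 2 pools of 5 mice. The deposited matrices hold UMI counts per gene and barcode, made by the authors with Cell Ranger 2.0.0 and STAR 2.5.1b. The table of cluster means deposited by the authors holds a score per gene, the mean over each of 11 clusters of counts rescaled so that a cell sums to 10000 (Seurat 2.3). Gene and barcode lists were used for names only.

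Cells with over 1000 and under 10000 UMIs, over 400 and under 5000 genes and a mitochondrial share under 25% were kept. Each deposited cluster mean was solved as a non-negative combination of the kept cells. A cell was assigned to the cluster in which its weight, multiplied by the cluster's number of cells, was largest. The lowest such weight was 0.9812 for the assigned cluster, and the highest was 0.0031 for any other. Counts were summed per type and pool and tested with edgeR 4.0.16 in R 4.3.3 (TMM, quasi-likelihood test, filterByExpr at min.count 5 and min.total.count 15). Each type was compared with the mean of the other 6 on the log scale, with Benjamini-Hochberg adjustment over 4510 genes. The 14 sums held 8491 to 281271 UMIs. Nothing beyond the 2 pools was replicated, so p-values measure only the spread between pools. That spread was estimated over the 14 sums, with 7 residual degrees of freedom, and moderated across genes. The sums are paired by pool, since all types of a pool share its mice and its library. The correlation of pool differences between types was -0.0346 to 0.148 (median 0.0256, 21 pairs), and pool as a block was an alternative. In simulated data of the same 4510 genes, 95.3% of 4-fold changes in macrophage/microglia and 80.9% in T-cell like cells were recovered, and 58.8% and 54.3% of them in the contrast between these types. These rates are over changed genes that passed the filter. Each gene was given the same mean level in all types before the change, and a common dispersion of 0.038. The rates therefore do not cover genes that, like most members, are near 0 in most types.

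Shares of cells are given as counted or with every cell thinned to 1000 UMIs, with exact (Clopper-Pearson) 95% intervals, and a count of 0 was bounded by 3 counts; these cover counting error only. Doublets called by Scrublet (scanpy 1.11.5, Python 3.11.15) were 5, and were kept. Alternatives were library size alone, DESeq2 size factors, DESeq2 1.42.0, no filter, a mitochondrial limit of 10%, doublets removed, each pool alone, and a clustering in Seurat 5.3.0 without chemokine and cytokine genes, which gave 469 of 528 cells the authors' name. The named genes were the 10 members, in each pathway list the 5 genes with most UMIs and any called gene, and the 3 genes most like *Il1b*, *Ccl3* and *Ccl5*; receptors and *Il1rn* outside this rule were chosen after their values were seen. The members and lists were chosen with earlier results of these data known. Some results are not reported here.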

Additional observations from a re-analysis of the deposited data

Results flagged for a closer look

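UMIs of the 10 genes were also counted in barcodes that the limits on cells left out, above the 3 counts allowed by a count of 0. In pool 1, barcodes of 1 to 50 UMIs held 1097 UMIs of 9 of the genes, with 330 of *Ccl5*, 271 of *Ccl4* and 210 of *Ccl12*, among 1892289 UMIs of 157608 barcodes. Barcodes from 51 UMIs to the limits held 1173 UMIs of all 10 genes in pool 1 (12990 barcodes) and 463 UMIs of 7 genes in pool 2 (1207 barcodes). Barcodes within the size limits but with a mitochondrial share at or over 25% held 135 UMIs of 6 genes in pool 1, of which 57 were *Ccl4*, and 58 UMIs of 3 genes in pool 2, of which 39 were *Ccl4*. Barcodes over the size limits held 7 UMIs of *Ccl5* in pool 1 and 15 UMIs in pool 2, 7 of *Ccl5* and 8 of *Cxcl16*. The cell types behind these barcodes were not assigned.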

How the results depend on the processing

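Over the fits of single members, 357 alternative values kept direction and, where a test was run, the call. A further 21 kept direction and lost the call, 1 gained it and 3 reversed. Fits to 1 pool alone had no test and were counted by direction only, with 24 without pool 1 and 22 without pool 2 among the 357. In epithelial-like cells, 1 pool alone gave -3.58 to 2.46 for *Ccl5* and -3.01 to 3.20 for *Cxcl16*, negative without pool 2, since all their UMIs there were in pool 2. *Ccl7* in T-cell like cells, not called, became -2.11 without the cells lacking *Cd3*, which held its 1 UMI. The 5 members called in T-cell like cells were 2 with DESeq2, 3 without the filter on low counts and 3 without the cells lacking *Cd3* (chosen after seeing the data). Calls between the 2 immune types were 8, and 5 with DESeq2. The 2 calls in the other 5 types were 0 with DESeq2, 0 without the filter, 1 at a mitochondrial limit of 10% and 1 without immune-marker cells (chosen after seeing the data). Called genes of the pathway lists were 33, 16 with DESeq2 and 18 at the mitochondrial limit of 10%. With DESeq2, *Ccl7* (2.24), *Il1b* (4.92) and *Tnf* (1.95) were not called in macrophage/microglia. The cause of these changes was not tested. With pool as a replicate block *Tnf* in T-cell like cells was not called (2.50), 9 members were called in macrophage/microglia and 4 in T-cell like cells, and no other member's call changed. With 1 pool alone there is no test; ln differences were then 6.12 to 6.52 for *Il1b* in macrophage/microglia and 1.69 to 3.45 for *Tnf* in T-cell like cells. Macrophage/microglia held the highest mean CPM of 7 of the 10 members, also after free RNA was subtracted and at the 10% limit. The clustering without cytokine genes named no cluster for the epithelial-like, VLMC and endothelial cells, so it gave no value for the other 5 types. *Tnf* (26 UMIs) and *Ccl7* (24 UMIs) are limited by depth.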
